A study of Mus musculus with 14 samples.

Results

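The 9 genes described here form a list for follicle homing and lymph node egress: Cxcr5, Ccr7, Cxcr4, Gpr183, S1pr1, Klf2, Selplg, Cd200 and P2rx7. Some of them, such as Cd200 and P2rx7, have other roles, given below with each gene. All 9 were chosen by name, out of 36870 gene names on the array, and 15 of the 56605 probes carry these names. Total RNA of CD4+ T-cells from mice was hybridised to 14 one-colour arrays, 7 of Roquin san/+ and 7 of wild-type animals. Roquin san/+ mice carry the sanroque allele of Rc3h1, which encodes the RNA-binding protein Roquin-1, in the heterozygous state, and no treatment is given for either group. Age, sex, strain background and the organ the cells came from are not stated in the labels, nor whether each array stands for a separate mouse, so p-values measure the spread between these samples, which may be technical.

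T-cells enter a lymph node from the blood and are kept in the T-cell zone by CCR7, the receptor for the chemokines CCL19 and CCL21. On activation, cells that are to become follicular helper T-cells (Tfh) lose CCR7 and gain CXCR5, the receptor for the follicle's chemokine CXCL13. Egress to the lymph is driven by S1PR1, the receptor for sphingosine-1-phosphate, whose gene is switched on by the transcription factor KLF2. Tfh cells typically have little KLF2, S1PR1 and PSGL-1 (the product of Selplg) and much CXCR5 and CD200.

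The level of a gene is given below as the log2 of its probe's processed signal less the 75th percentile of the same array, so that 1 unit is a doubling and 0 is the level of a fairly bright probe. The sign says only where a probe stands on its array, and levels of different probes cannot be ranked, since each binds its target with its own strength. Where a gene has several probes, the probe with the highest mean is described first. In mm9 coordinates from the files, the leading probe lay at chr9:44320071-44320130 for Cxcr5, chr11:99005551-99005610 for Ccr7, chr1:130485079-130485138 for Cxcr4, chr14:122351881-122351940 for Gpr183 and chr3:115414020-115414079 for S1pr1. It lay at chr8:74845137-74845196 for Klf2, chr5:114268564-114268623 for Selplg, chr16:45382387-45382446 for Cd200 and chr5:123134194-123134253 for P2rx7. No gene model of that build was used here, so the part of the exon each probe reads is not stated. Cxcr5, Gpr183, S1pr1, Klf2 and Selplg rested on 1 probe each. Ccr7 and Cxcr4 had 2, and Cd200 and P2rx7 had 3.

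Cxcr4, Cd200 and P2rx7 have a dimmer probe upstream of the leading one. The letters of these probes are shown because they give a separate reading of the same gene from another stretch. For P2rx7 the printed probe is listed under transcript variant 2 and the leading probe under variant 1, so that it may also read another form. They are given 5′ to 3′ as the files hold them, and no base is set in capitals.
Cxcr4 probe A_55_P2745744: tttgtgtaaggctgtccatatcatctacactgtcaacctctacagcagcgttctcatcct
Cd200 probe A_51_P293110: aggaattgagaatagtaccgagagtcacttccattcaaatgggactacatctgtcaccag
P2rx7 probe A_51_P506733: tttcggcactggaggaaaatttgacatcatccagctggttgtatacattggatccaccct
The Cxcr4 probe maps to chr1:130486114-130486173 and the Cd200 probe to chr16:45394810-45394869, both on the minus strand. The P2rx7 probe maps to chr5:123120528-123123413 on the plus strand, a span of 2886 bases for a probe of 60, so that its bases are not contiguous in the genome.

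Several arrays stood apart. On 2 arrays, replicate G of Roquin san/+ and replicate E of wild-type, the spots were read 2 grid rows away from their names. The spots were moved back before any comparison, after which their correlation with the median array rose from 0.0143 to 0.909 and from 0.0149 to 0.889. The move does not mend the detection calls of these arrays, which were set from misplaced control spots. On them 22.0% and 19.5% of probes were called well above background, against 53.4% to 75.5% on the others. Roquin san/+ replicate C was the dimmest array, with a 75th percentile of 107 against 408 to 1143 on the others. All 8 T-cell markers, Cd4 and Cd3e among them, were well above background on all 14 arrays, while of the CD8 T-cell markers Cd8a was so on 5 and Cd8b1 on 13. Roquin san/+ replicate F carried the most signal of other cells: the summed B-cell markers stood at 4.66 on it and between -1.30 and 1.35 on the remaining 6 of that genotype, and its summed T-cell markers were the lowest of its group, at 4.28. Wild-type replicate B had the highest B-cell sum of its group, 2.70. Slide 1 held 5 Roquin san/+ and 2 wild-type arrays, and slide 2 held 2 and 5. The level of Rc3h1 differed by -0.07, which does not check the genotype, since sanroque is a point mutation.

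In the main comparison no test found a difference between the genotypes in any of the 9 genes. All had a probe that passed the detection filter (13 of the 15 probes did), and 0 of 9 had an adjusted p below 0.05 with limma, where 0% of the 29033 probes tested did. At an unadjusted p below 0.05 the count was also 0 of 9, against 3.83% of all probes. The values of the genotypes overlapped for all 9 genes, and the share of probes whose groups do not overlap was 0.0448%. In Roquin san/+, 6 of the 9 means were higher and 3 lower, with a median difference of 0.13 beside 0.07 over all probes tested. Two-sided exact permutation p-values ran from 0.236 to 0.965 over the 9, where 7 arrays against 7 could reach 5.83e-04. These bulk levels cannot tell fewer cells of a kind from less RNA per cell.

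Cxcr5 had the largest difference and the widest spread of the 9. Its level ran from -4.94 through a median of -1.06 to 0.35 on Roquin san/+ arrays, and from -3.43 through -1.85 to -0.57 on wild-type arrays. The means were -1.30 ± 1.77 and -1.91 ± 0.96 (SD, n = 7 each), a difference of 0.61 with a 95% interval of -0.87 to 2.08 (limma adjusted p = 0.900, exact permutation p = 0.454). The top of the Roquin san/+ group lay above every wild-type array and its bottom lay below every one. The highest arrays were replicate F, at 0.35, and replicate G, at 0.31. Replicate F is the array with the most B-cell marker signal, and B-cells carry CXCR5 themselves. Replicate G had the highest summed Tfh markers of all arrays (2.50) and a B-cell sum of -0.89. Within wild-type, the array with the most B-cell signal, replicate B, was also the highest for Cxcr5. Roquin san/+ replicate C, by contrast, had a B-cell sum of 0.92 and the lowest Cxcr5 of all arrays.

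At the other end, Cxcr5 was lowest in each genotype on replicate C. On Roquin san/+ replicate C the probe was not well above background, so that its level there is a dim reading, and Cxcr5 passed the filter through the wild-type arrays. Without both replicates C the difference was 0.96 with an interval of 0.07 to 1.86 (limma adjusted p = 0.999, exact permutation p = 0.0584). That choice was made after their values were seen, and it narrows the spread by construction. Without Roquin san/+ replicate C alone the difference was 1.22 (exact permutation p = 0.0326), the largest of the 14 runs that left out 1 array. Without both moved arrays and replicate F it was 0.03 (exact permutation p = 0.972). Leaving out those 3 arrays and both replicates C gave 0.49 (exact permutation p = 0.278, 4 arrays against 5). The size of the Cxcr5 difference thus hung on which arrays were counted. All 10 B-cell markers had a higher mean in Roquin san/+, as had all 9 myeloid, 5 plasma cell, 2 CD8 T-cell and 6 Tfh markers. Of the other lists, 3 of 4 NK, 3 of 5 erythroid and 1 of 8 T-cell markers were higher. The median difference over all tested probes was 0.07. Within Roquin san/+, 9 of the 10 B-cell markers were highest on replicate F. The summed Tfh markers ran from 0.91 to 2.50 in Roquin san/+ and from -0.11 to 1.58 in wild-type. The part of B-cell RNA in the Cxcr5 difference was not tested.

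Ccr7, the receptor that holds T-cells in the T-cell zone, was read at 0.67 to 2.63 with a median of 2.32 on Roquin san/+ arrays, and at 1.26 to 2.61 with a median of 2.14 on wild-type arrays. The difference of means was -0.27, with an interval of -0.94 to 0.41 (limma adjusted p = 0.903, exact permutation p = 0.442). The medians stood in the opposite order to the means, because 3 Roquin san/+ arrays were low: replicate C at 0.67, replicate F at 1.29 and replicate G at 1.64. Of the wild-type arrays only replicate C, at 1.26, was below 2. The second Ccr7 probe starts at base 1560 of the transcript and the first at base 1877, and the mm9 coordinates of the second span only 26 bases for a probe of 60. It gave a difference of -0.23 (exact permutation p = 0.546) and the same 3 low Roquin san/+ arrays. With the moved arrays, replicate F and both replicates C left out, the difference was 0.06 (exact permutation p = 0.651).

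Cxcr4, the receptor for CXCL12, which draws cells to the dark zone of germinal centres and to bone marrow, ran from -4.67 through -3.55 to -2.92 in Roquin san/+ and from -4.98 through -3.88 to -3.27 in wild-type. The difference was 0.37 with an interval of -0.24 to 0.99 (limma adjusted p = 0.866, exact permutation p = 0.236). Replicates F and G of Roquin san/+ were again the highest of their group, at -3.05 and -2.92. On slide 1 all 5 Roquin san/+ arrays were above both wild-type arrays, with a difference of 1.25 (exact permutation p = 0.0476, the smallest that 5 against 2 allow). On slide 2 the difference was -0.45 (exact permutation p = 0.333). The test of the slide's effect on the genotype difference gave an adjusted p of 0.492 with limma. The upstream probe printed above was well above background on 4 Roquin san/+ and 5 wild-type arrays and did not pass the filter. Its difference was 0.08 (exact permutation p = 0.918).

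Gpr183, also known as EBI2, senses oxysterols and moves activated cells to the outer follicle and the border with the T-cell zone. Its levels nearly coincided, from -3.58 through -2.36 to -2.02 in Roquin san/+ and from -3.58 through -2.39 to -2.21 in wild-type. The difference was 0.11 with an interval of -0.44 to 0.67 (limma adjusted p = 0.961, exact permutation p = 0.651). Replicate C was the lowest array of each genotype for this gene as well, at -3.58 in both.

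S1pr1 and Klf2 form the egress pair. S1pr1 ran from -0.57 through -0.34 to 0.85 on Roquin san/+ arrays and from -0.33 through 0.09 to 0.38 on wild-type arrays. The difference was -0.18 with an interval of -0.65 to 0.29 (limma adjusted p = 0.906, exact permutation p = 0.417). Roquin san/+ replicate D held the highest value of all 14 arrays, and 4 of the other Roquin san/+ arrays lay below every wild-type array. Without replicate D the difference was -0.35 (exact permutation p = 0.0460, limma adjusted p = 0.810). Without both moved arrays it was -0.10 (exact permutation p = 0.680).

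Klf2 could be read on 6 arrays of each genotype only, because its spot lies in the rows that the moved arrays lost. It ran from 0.67 through 2.26 to 2.63 in Roquin san/+ and from 1.22 through 2.19 to 2.43 in wild-type. The difference was -0.01 with an interval of -0.70 to 0.68 (limma adjusted p = 0.997, exact permutation p = 0.965, where 6 against 6 could reach 0.00216). Both low values came from the replicates C, and the other 10 arrays lay between 2.08 and 2.63. With both replicates C left out, a choice made after their values were seen and one that narrows the spread by construction, the difference was 0.10 (exact permutation p = 0.373).

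Selplg encodes PSGL-1, the ligand of the selectins and a brake on T-cell receptor signals. Its level was 0.76 to 1.46 with a median of 1.07 in Roquin san/+ and 0.15 to 1.25 with a median of 1.11 in wild-type. The difference was 0.13 with an interval of -0.29 to 0.54 (limma adjusted p = 0.934, exact permutation p = 0.533). Wild-type replicate C held the lowest value, at 0.15, and the remaining 13 arrays stayed within 0.76 to 1.46. Without wild-type replicate C the difference was -0.0070.

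Cd200, a surface glycoprotein carried by Tfh cells and by B-cells that inhibits myeloid cells through its receptor, was higher on average in Roquin san/+ by each of its 3 probes. The leading probe ran from -3.56 through -2.77 to -2.07 in Roquin san/+ and from -4.59 through -3.33 to -2.28 in wild-type. Its difference was 0.42 with an interval of -0.27 to 1.11 (limma adjusted p = 0.866, exact permutation p = 0.252). The highest arrays were replicate G of Roquin san/+, at -2.07, and replicates B and D of wild-type, and the lowest was wild-type replicate C, at -4.59. For the probe A_51_P293110 printed above the difference was 0.58, with an interval of -0.31 to 1.46 (exact permutation p = 0.217), and wild-type replicate E was at its floor of -5.67. The third probe, listed under another transcript than the leading one, was well above background on Roquin san/+ replicate A alone. It did not pass the filter, and its highest wild-type reading, -5.67, is the lowest signal that the moved array can show. Cd200 kept a positive difference in every alternative run, from 0.14 to 0.57, and did not pass the test in any.

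P2rx7, an ion channel opened by extracellular ATP that kills Tfh cells and other activated T-cells, ran from -2.72 through -0.73 to -0.03 in Roquin san/+ and from -2.003 through -0.97 to -0.55 in wild-type. The difference was 0.15 with an interval of -0.63 to 0.93 (limma adjusted p = 0.962, exact permutation p = 0.712). Replicate F was the lowest Roquin san/+ array by the leading probe, at -2.72, and also by the others, at -4.73 and -6.50. Replicate C, by contrast, was the highest of its group by all 3 probes. Without replicate F the difference was 0.45 (exact permutation p = 0.131). The differences by the other probes were 0.05 (A_55_P2183010, exact permutation p = 0.886) and 0.16 (A_51_P506733, exact permutation p = 0.691). These probes are listed under transcript variants 4 and 2, and the leading one under variant 1.

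**Figure D1:**
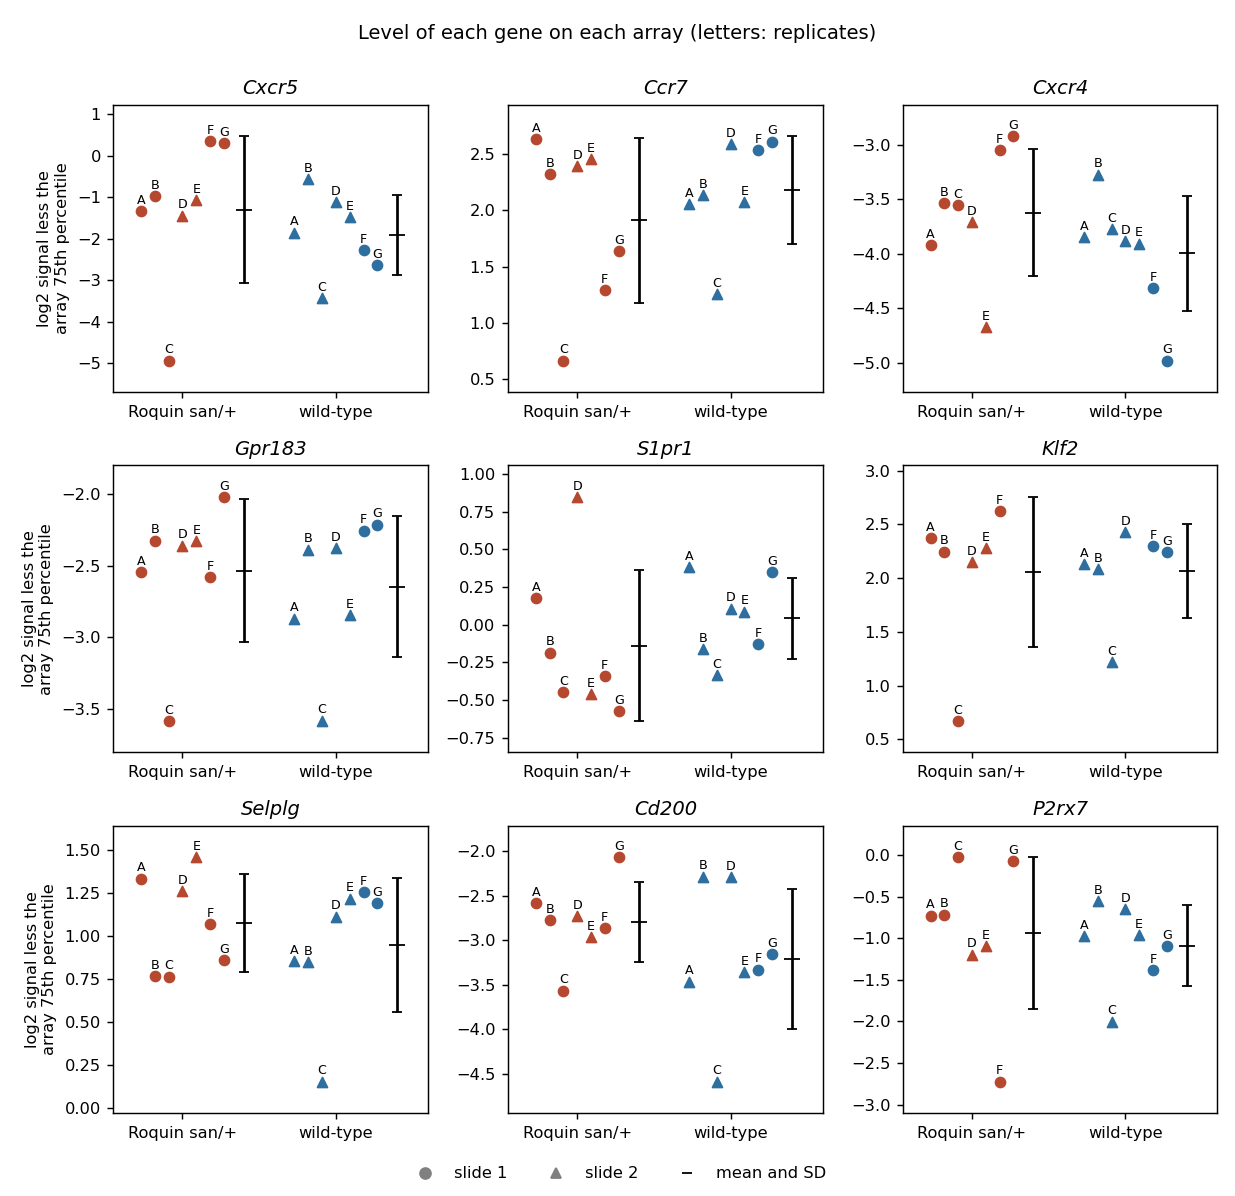
Each panel shows 1 gene, with the log2 signal of its leading probe less the array's 75th percentile on the y axis and the 14 arrays grouped by genotype on the x axis (letters are replicates, circles slide 1, triangles slide 2, black bars the mean and SD). The genotypes overlap in all 9 panels, and replicate C is the lowest array of both genotypes for Cxcr5, Ccr7, Gpr183, Klf2, Selplg and Cd200.

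Low values on the replicates C were thus shared by several genes. Of the 6 well-placed wild-type arrays, replicate C was the lowest on 36.2% of the tested probes and the highest on 27.2%. Roquin san/+ replicate C was the lowest of its 6 on 19.8% and the highest on 49.1%. Both replicates C were the lowest of their groups together on 10.3% of the tested probes. The summed T-cell markers were 4.56 and 4.31 on the replicates C of Roquin san/+ and wild-type, and 5.13 to 5.54 on all other arrays except Roquin san/+ replicate F. The part of T-cell content or of dim signal in these low values was not tested.

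The choice of scaling moved the differences, and not by the same amount in each gene. The median difference over all tested probes was 0.07 as given here, 0.23 after normexp background correction, -0.08 after quantile normalization, -0.10 with the percentile taken over all probes and -0.07 in the log2 values that the authors deposited. Relative to these medians, Cxcr5 stayed higher in Roquin san/+ by 0.36 to 0.54, Cd200 by 0.26 to 0.36 and Cxcr4 by 0.22 to 0.30. Ccr7 stayed lower, at -0.51 to -0.21, and so did S1pr1, at -0.39 to -0.12. Gpr183, Klf2, Selplg and P2rx7 changed sign among the scalings. None of these differences passed the test under any scaling. Taking the percentile over all probes moves every probe of an array by the same amount, which drops out when the median is subtracted. Its relative values thus nearly repeat those of the scaling used here (0.54 for Cxcr5 in both) and are no separate reading.

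Between the slides, the direction of most genes was not stable. Ccr7 was lower in Roquin san/+ on slide 1, by -0.87, and higher on slide 2, by 0.40. S1pr1 was at -0.38 and 0.18, Klf2 at -0.29 and 0.25, Selplg at -0.26 and 0.52, Gpr183 at -0.38 and 0.47, and P2rx7 at 0.39 and -0.12. Cxcr5 (1.14 and 0.44) and Cd200 (0.47 and 0.35) were higher on both slides. The arrays with other cells, with the dimmest signal and with 1 of the moved grids all lay on slide 1 in the Roquin san/+ group, and the slide's part in these differences was not tested apart from them. With slide as a block the differences were 0.79 for Cxcr5, -0.23 for Ccr7, 0.40 for Cxcr4 and 0.41 for Cd200, and those of the other 5 lay between -0.10 and 0.13. The exact permutation p-values within slides ran from 0.249 to 0.951.

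**Figure D2:**
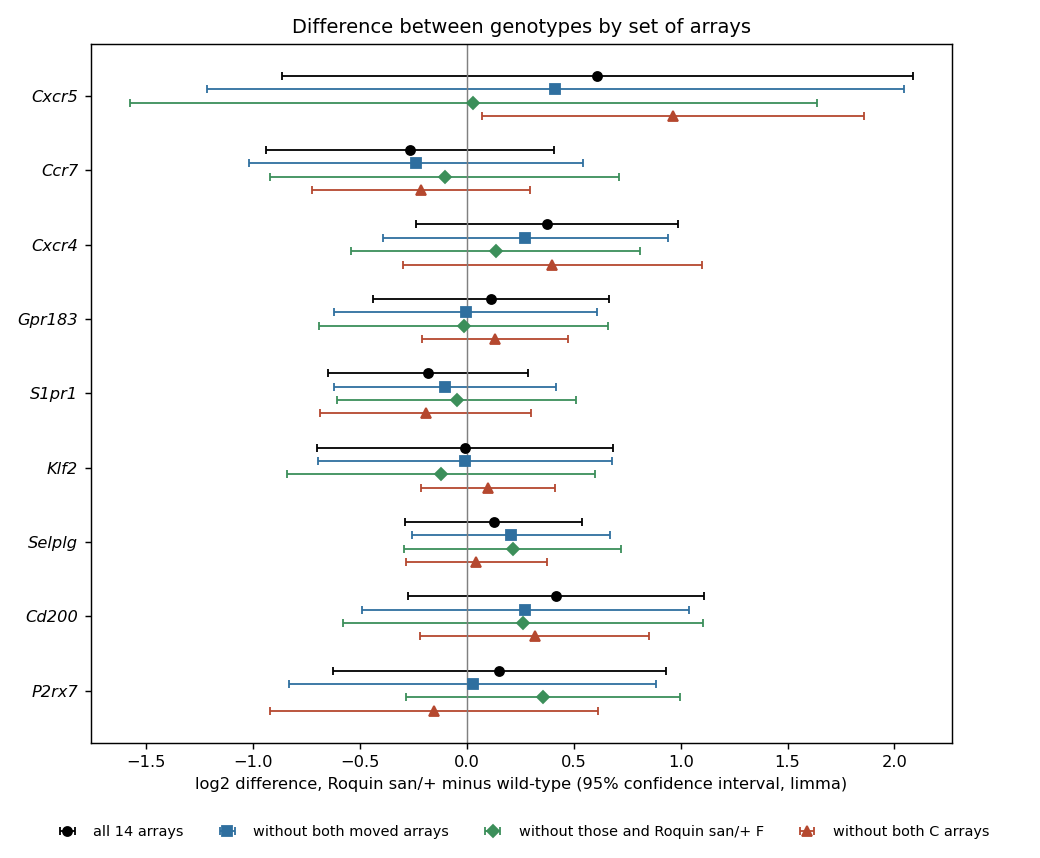
The log2 difference between genotypes (x axis, Roquin san/+ minus wild-type) with its 95% limma interval is drawn for each gene with all 14 arrays and with 3 sets of arrays left out. The interval for Cxcr5 reaches from -0.87 to 2.08 with all arrays and from 0.07 to 1.86 without both replicates C, while the intervals of the other genes include 0 in all 4 settings. Leaving out the replicates C was chosen after their values were seen and narrows the spread of Cxcr5 by construction.

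The relations between 5 pairs of measures over arrays were examined, and their values moved with the replicates C and with Roquin san/+ replicate F. Klf2 with Ccr7 gave a Pearson r of 0.74 over 12 arrays (permutation p = 0.0170, adjusted 0.0849) and a Spearman rho of 0.58 (permutation p = 0.0521, adjusted 0.131). Without the 2 arrays farthest from the median of Klf2, which were the replicates C, r was -0.38 (permutation p = 0.257). On those 10 arrays Roquin san/+ replicate F stood alone, with the highest Klf2 of all and a low Ccr7. Without replicate F alone r was 0.98 (permutation p = 3.0e-05) and rho 0.86 (permutation p = 0.00129), and without all 3 arrays r was 0.83 over 9 arrays, so that the sign of r turned on replicate F once the replicates C were left out. Within slide 1 r was 0.67 (exact permutation p = 0.142) and within slide 2 it was 0.98 (exact permutation p = 0.00278), with a replicate C on each slide.

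Klf2 with S1pr1, a factor and its target gene, gave r = 0.33 (permutation p = 0.295, adjusted 0.295) and rho = 0.03 (permutation p = 0.920, adjusted 0.920). Without the replicates C, r was -0.41 (permutation p = 0.242). Within the slides r was 0.46 and 0.31 (exact permutation p = 0.431 and 0.575). The relation of the egress receptor to its regulator did not pass the test over these 12 arrays.

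Cxcr5 with Ccr7, whose exchange marks the move to the follicle, gave r = 0.35 (permutation p = 0.221, adjusted 0.295) and rho = 0.05 (permutation p = 0.882, adjusted 0.920). Without the replicates C the sign turned, with r = -0.76 over 12 arrays (permutation p = 0.00439) and rho = -0.52 (permutation p = 0.0890). Roquin san/+ replicates F and G, highest for Cxcr5 and low for Ccr7, are the extreme points of that trend. Within slide 1 r was 0.21 (exact permutation p = 0.648) and within slide 2 it was 0.85 (exact permutation p = 0.0442), each with a replicate C.

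Cxcr5 with the mean level of the 10 B-cell markers gave r = 0.40 (permutation p = 0.153, adjusted 0.295) and rho = 0.53 (permutation p = 0.0524, adjusted 0.131). Without the replicates C, r was 0.74 and rho 0.76 (permutation p = 0.00605 for each). Without Roquin san/+ replicate F, the highest array for both measures, r was 0.20 (permutation p = 0.523) and rho 0.42 (permutation p = 0.158). Leaving out both moved arrays instead gave r = 0.45 (permutation p = 0.144) and rho = 0.57 (permutation p = 0.0600). Cd79a, Pax5, Ebf1, Blk and Fcer2a were at the floor of the moved arrays, -5.88 and -5.67, which bounds the B-cell mean there from below. Within the slides r was 0.40 and 0.47 (exact permutation p = 0.380 and 0.280). Cd200 with the same mean gave r = 0.33 (permutation p = 0.248, adjusted 0.295) and rho = 0.38 (permutation p = 0.186, adjusted 0.310). Without both moved arrays its r was 0.38 (permutation p = 0.219). Without the 2 arrays farthest from the Cd200 median, namely replicate G of Roquin san/+ and replicate C of wild-type, r was 0.40 (permutation p = 0.196). Within the slides it was 0.12 and 0.55 (exact permutation p = 0.801 and 0.206). Of the 5 relations, 0 had an adjusted p below 0.05.

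**Figure D3:**
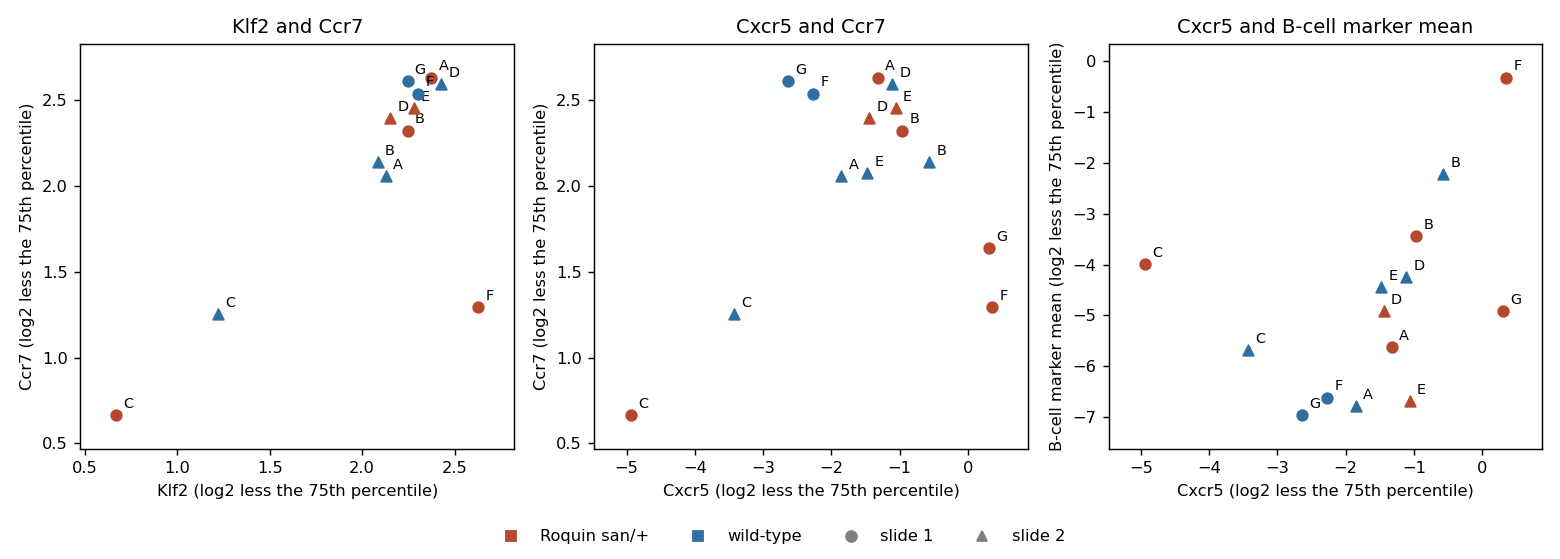
Each point is an array, placed by the log2 levels (less the array's 75th percentile) of Klf2 and Ccr7, of Cxcr5 and Ccr7, and of Cxcr5 and the mean of 10 B-cell markers (letters are replicates, colours genotypes, circles slide 1, triangles slide 2). The replicates C lie at the lower left for Klf2 and Ccr7, and Roquin san/+ replicate F has the highest B-cell mean and the highest Cxcr5.

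The genes whose levels ran most like Cxcr5 over the 12 well-placed arrays, among 19213 genes compared, were Washc5 (r = 0.96), Pros1 (0.96), Man2a1 (0.96), Clic1 (0.96) and Tmem134 (0.95). Without Roquin san/+ replicate F the list was Tnks2 (0.97), Washc5 (0.96), Clic1 (0.95), Itgav (0.95) and AI504432 (0.95). For Klf2, genes at the top of the list were Thbs3, Tsc22d3, Esrra and Nfkbiz, each at 0.98. Without replicate F they were Thbs3 (0.99), Ramp3 (0.99), Rap1gds1 (0.99), Ccr7 (0.98) and Zfp287 (0.98). The replicates C, low for both genes, weigh on these values: over the 9 arrays without them and replicate F, Klf2 with Ccr7 stood at 0.83 and Klf2 with Thbs3 at 0.69. Points of this kind share their arrays and their scaling, and the values are descriptions.

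A wider list of 58 trafficking genes was set beside the 9. Of these, 49 had a probe that passed the filter, and 0 had an adjusted p below 0.05. In Roquin san/+, 38 were higher and 11 lower, with a median difference of 0.17 beside 0.07 for all probes. Unadjusted, 8 of the 49 (16.3%) were higher at p below 0.05 and 0 lower, where 3.48% of all probes were higher and 0.351% lower. With the percentile taken over all probes, 24 were higher and 25 lower. At an unadjusted limma p below 0.05, 4 were then higher and 0 lower, beside 593 and 486 of all 29033 probes. Among the 8 were S1pr5, Cx3cr1, Cxcr3, Itgae, Fut7, Itgal and Entpd1. S1pr5 passed the filter only through Roquin san/+, where it is higher, so that the filter itself favours its place in this count.

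Among ligands and the enzymes that make them, 6 of 12 genes were tested. The chemokines Cxcl13, Cxcl12, Ccl19 and Ccl21a, made by stromal cells, and the oxysterol enzymes Ch25h and Cyp7b1 did not pass the filter. Sphk1, which makes sphingosine-1-phosphate, had a difference of -0.94 (exact permutation p = 0.290), with a spread of 1.56 and 1.61 (SD) within the genotypes. Selp, the selectin that binds PSGL-1, was at 0.54 (exact permutation p = 0.281), and Hsd3b7, which breaks down oxysterol ligands of Gpr183, at 0.20 (exact permutation p = 0.491). Without both replicates C these were 0.21 and 0.09.

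Of 15 other guidance receptors 13 were tested. S1pr5, the egress receptor of NK cells, averaged -5.43 ± 1.90 on Roquin san/+ arrays and -7.20 ± 0.99 on wild-type arrays (SD, n = 7 each), a difference of 1.76 (limma adjusted p = 0.866, exact permutation p = 0.0408). It was well above background on 6 Roquin san/+ arrays and 4 wild-type arrays and passed the filter through Roquin san/+ alone, where it is higher. The filter thus favours a difference in that direction, and the p of S1pr5 supports nothing. Cx3cr1, a receptor of monocytes and cytotoxic cells, differed by 1.19 (exact permutation p = 0.0367). Both were highest on Roquin san/+ replicate F, where the summed NK markers stood at 2.53, while the remaining 6 of that genotype had -3.25 to -1.02, and the summed myeloid markers at 6.44 against 2.17 to 5.11. Without replicate F the differences were 1.18 and 0.77. S1pr5 was at -5.67, the floor of the moved array, on wild-type replicate E, and without both moved arrays its difference was 2.04. Cxcr3, a receptor of type 1 effector cells that the naming rule left out and that is named for its p, differed by 0.71 (exact permutation p = 0.00524), and by 0.56 without both moved arrays.

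All 10 adhesion and glycosylation genes were tested. Itgae, the integrin chain CD103 of tissue-resident and some regulatory T-cells, averaged -4.16 ± 0.87 on Roquin san/+ arrays and -5.74 ± 0.56 on wild-type arrays. Its difference of 1.58 had the smallest p of the list in limma (adjusted p = 0.866, exact permutation p = 0.00117), and it was 1.30 without both moved arrays and 0.87 without these, replicate F and both replicates C. The groups overlapped at a single wild-type array: replicate B, at -5.01, was just above Roquin san/+ replicate B, at -5.02. Wild-type replicate E was at its floor of -5.67 for Itgae as well. Fut7, the fucosyltransferase that builds selectin ligands on PSGL-1, differed by 0.57 (exact permutation p = 0.0262), and Gcnt1, which branches the glycans of PSGL-1, by 0.72 (exact permutation p = 0.276), by 0.38 without replicate F and by 0.03 with the 5 arrays left out. Itgal, the LFA-1 chain, named for its p like Cxcr3, differed by 0.48 (exact permutation p = 0.00117).

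Of 21 regulators and signalling genes 20 were tested, and the median difference was 0.08. Entpd1, which degrades the ATP that opens P2X7, averaged -4.25 ± 0.54 on Roquin san/+ arrays and -5.15 ± 0.38 on wild-type arrays, a difference of 0.90 (limma adjusted p = 0.866, exact permutation p = 0.00350), and of 0.61 with the 5 arrays above left out. Nt5e, the next enzyme of that chain, differed by 0.58 (exact permutation p = 0.170), and Rgs1, a brake on chemokine receptor signals, by 0.63 (exact permutation p = 0.0962), which became 0.27 and 0.33 without these 5. Among genes tied to the 9, Klf3 differed by -0.03, Foxo1, which drives Klf2, by 0.06, and Cd69, which pulls S1PR1 from the surface, by 0.14 (exact permutation p = 0.783, 0.808 and 0.625).

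**Figure D4:**
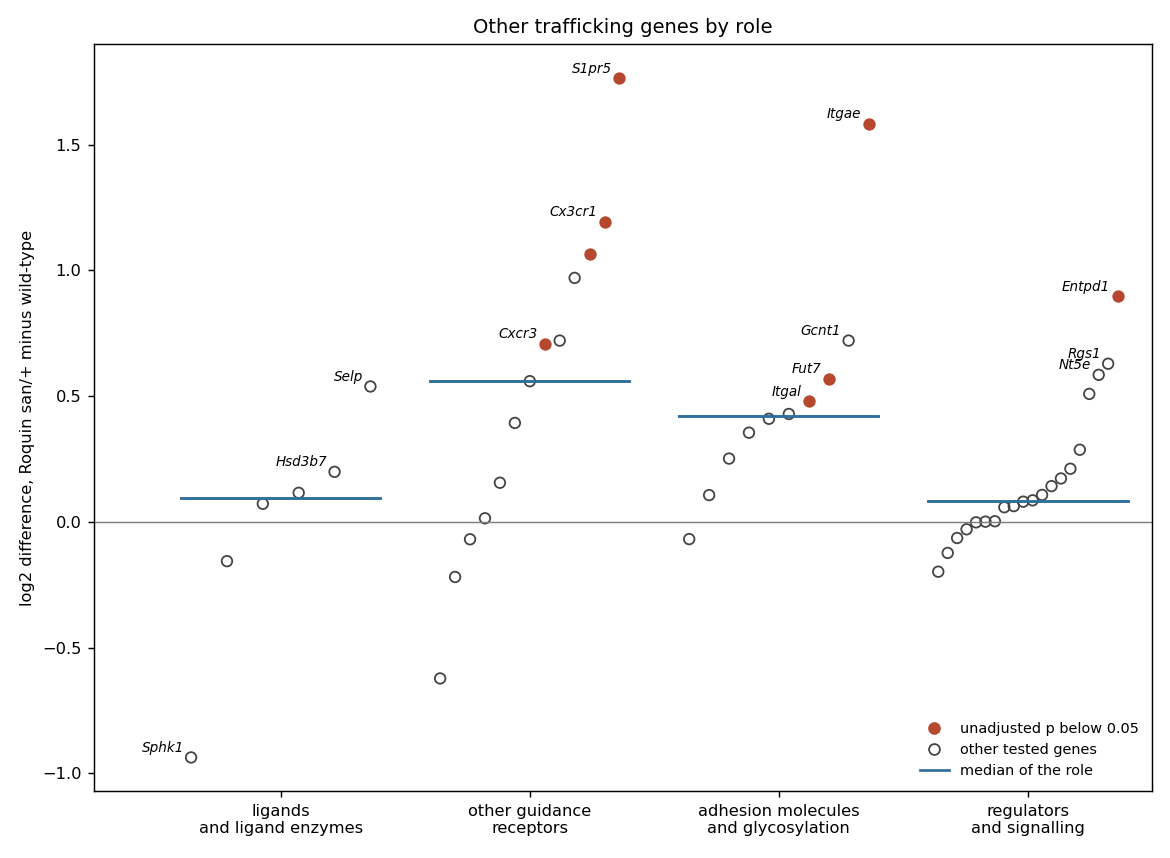
Each point is a tested gene of the wider trafficking list, placed by role on the x axis and by its log2 difference (Roquin san/+ minus wild-type) on the y axis, with filled points at an unadjusted limma p below 0.05 and a line at the median of the role. The 8 filled points are all above 0, and none passed after adjustment. S1pr5, among the 8, passed the filter through Roquin san/+ alone.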

How the data were processed

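Total RNA of CD4+ T-cells, 7 Roquin san/+ and 7 wild-type samples, was hybridised to one-colour Cy3 arrays. The authors deposited each array's spot intensities from Agilent Feature Extraction 10.5.1.1 (submitters' processing notes), of which the processed signal was used, and a table of log2 values of the same arrays whose method is not given in the sources used here. The 9 genes, the lists and the tests were chosen with earlier results of these data known.

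Each array was compared with the median array over 169 shifts, and 2 arrays were moved by 2 rows, which left 328 spots of each without a value. Control spots and outlier flags were left out, and spots of a probe were averaged on the log2 scale. The array's 75th percentile was subtracted, taken from the 10320 probes called well above background on all 14 arrays. That choice rests on the calls of the moved arrays as well. Tested probes (29033) were well above background on all 6 well-placed arrays of a genotype. This filter looks at the genotype: 840 probes passed through Roquin san/+ alone and 3976 through wild-type alone. Genotypes were compared with limma 3.58.1 in R 4.3.3 (lmFit, eBayes, Benjamini-Hochberg over all tested probes) and by two-sided exact permutation, and relations by 100000 permutations, or all of them within a slide (Python 3.11.15, numpy 2.4.6). The fit was tested on simulated data. Slides were taken from the file headers. Alternatives changed the background correction, scaling, filter, blocks, source of values and arrays used. The named trafficking genes are the 3 of each role with the largest difference, and some results that these rules would name are not reported here.
The number of arrays limits the precision. Arrays of the same letter were not treated as pairs, since the correlation of same-lettered arrays' deviations ran from -0.33 to 0.43.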

Additional observations from a re-analysis of the deposited data

Results flagged for a closer look

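In 16 of 74 groups of values the highest or lowest array stood off from the nearest other by more than Dixon's limit at the 95% level, where chance alone marks about 1 in 20 groups. The groups are not independent, since the same arrays enter all of them.

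Wild-type replicate C was the array that stood off most often, and Roquin san/+ replicate C came next. They are separate arrays that share only a letter. On Roquin san/+ replicate C, Cxcr5 was at -4.94 with the next array at -1.44, Gpr183 at -3.58 with the next at -2.58, and Klf2 at 0.67 with the next at 2.15. On wild-type replicate C, Ccr7 was at 1.26 with the next at 2.06, Klf2 at 1.22 with the next at 2.08, and Selplg at 0.15 with the next at 0.85. On that array Nt5e (-3.77), Itgal (-3.57) and the summed T-cell markers (4.31) stood off below as well. Its summed plasma cell markers (4.07) and myeloid markers (4.87) were the highest of the wild-type arrays, and the part of other cells in the low values was not tested.

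Roquin san/+ replicate G, a moved array, stood off above for Itgae, at -2.39 with the next at -3.90, and for Cxcr3, at 0.95 with the next at 0.06. Roquin san/+ replicate F stood off above for the summed CD8 T-cell markers, at 1.25 with the next at -2.34, and for the summed NK markers, at 2.53 with the next at -1.02.

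The third Cd200 probe and Selp were both at -5.67 on wild-type replicate E, which is the lowest signal of that moved array and carries no order against the other arrays. The probe A_51_P506733 of P2rx7 was at -4.39 on wild-type replicate A, with the next array at -5.02.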

How the results depend on the processing

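The number of probes with an adjusted p below 0.05 was 0 under every alternative run, for the 9 genes and for the trafficking list as well, and the lowest adjusted p of any of the 9 was 0.562. Cd200 and Cxcr5 kept their direction under all of them, though Cxcr5 ranged from 0.03 to 1.41. Slide 1 alone gave Cxcr4 1.25, Gpr183 -0.38 and Selplg -0.26, and slide 2 alone gave Ccr7 0.40, Cxcr4 -0.45, S1pr1 0.18, Klf2 0.25 and P2rx7 -0.12. Gpr183 was at -0.058 with quantile normalization, -0.060 with the all-probe percentile, -0.069 in the authors' values, -0.0064 without both moved arrays and -0.015 without those and replicate F. Klf2 was at 0.016 with normexp and 0.11 in the authors' values. With the all-probe percentile Selplg was at -0.047, P2rx7 at -0.021 and the trafficking median at -2.55e-04. Leaving out both replicates C, chosen after seeing the data, gave Klf2 0.10 and P2rx7 -0.15. Leaving out those, both moved arrays and replicate F, also chosen after seeing the data, gave Ccr7 0.064, Klf2 0.026 and P2rx7 -0.0033. The cause of these changes was not tested.

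With the replicate letter as a block, the same differences had exact sign-flip p-values of 0.172 to 0.938, Klf2 being at -0.02, and 923 probes had an unadjusted p below 0.05. With replicate block and slide together, Cxcr5 was at 1.41 (limma unadjusted p = 0.0483, not past the threshold after adjustment), Klf2 at 0.025, Selplg at -0.032 and P2rx7 at -0.25. The block changed no other call.

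Leaving out 1 array at a time gave 0.33 (without Roquin san/+ replicate F) to 1.22 (without its replicate C) for Cxcr5, -0.42 to -0.06 for Ccr7, 0.21 to 0.55 for Cxcr4, -0.044 to 0.29 for Gpr183 and -0.35 to -0.11 for S1pr1. It gave -0.18 to 0.27 for Klf2, -0.0070 to 0.18 for Selplg, 0.19 to 0.57 for Cd200, -6.95e-04 to 0.45 for P2rx7 and 0.09 to 0.21 for the trafficking median. Without wild-type replicate C, Gpr183, Selplg and P2rx7 turned negative. The adjusted counts stayed at 0. Of 279 exact tests of a gene under a setting, 3 had a p below 0.05. These are not separate tests, since all reuse the same arrays, and settings that change only the filter or the eBayes step repeat the same exact p. The 3 therefore give no rate.

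Against 1113 probes at an unadjusted p below 0.05, quantile normalization gave 717, the filter over all 7 arrays 522, slide as a block 461, replicate block with slide 683, leaving out both moved arrays 1919, leaving out both replicates C 714, and leaving out 1 array 649 to 2400. The split of higher against lower was 1011 to 102, and it was 402 to 315 with quantile normalization, 593 to 486 with the all-probe percentile and 659 to 732 in the authors' values. Signals near the floor of an array limit the dim probes, above all on the moved arrays and on Roquin san/+ replicate C.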
